A study of Homo sapiens with 6 samples.

Results

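Accessible sites at gene 3′ ends were analysed as 246 regions out of 54345 merged autosomal peak regions of the series. A site was taken where the summit of a peak, its highest point, lay within 500 bp of the 3′ end of a protein-coding gene record of GENCODE version 44 on hg19, in no coding sequence and more than 2 kb from every protein-coding transcript start. Over the 6 peak lists 697 peaks met this rule, and those that overlapped were merged. The libraries were bulk ATAC-seq of GM12878, a human lymphoblastoid B-cell line, in which the Tn5 transposase inserts adapters into open chromatin. Per the labels, all cells were fixed in 1% PFA, lysed with 0.05% Igepal CA-630, transposed for 30 min at 37 °C and quenched with 40 mM EDTA. Reverse crosslinking ran overnight at 65 °C and was followed by inactivation at 80 °C for 10 min. The labels give these steps for all 6 libraries, but the methods describe the lysis, quench and inactivation for the unpurified workflow. Whether the protocols also differed in them is not known. There were 3 protocols of reverse crosslinking with 2 replicate libraries each: an old buffer with SDS and DNA purification, a new buffer without SDS, with DNA purification as the legend of the study describes it, and the new buffer without purification, the bulk Pi-ATAC workflow, in which PCR was set up directly in the reverse crosslinking mix. No antibody was used, all libraries came from 1 cell line, and the labels do not say that replicates were separate cultures, so every p below covers the spread between libraries, which may be technical.

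At the 3′ end of a gene the RNA is cut and polyadenylated, usually a short distance past a poly(A) signal, AATAAA or a close variant, and the polymerase runs on before it is released. DNA at poly(A) sites is rich in A and T and is known to be poor in nucleosomes. Accessible DNA there can also belong to an enhancer, to an insulator bound by CTCF, or to the start of another transcript, such as an antisense or long noncoding RNA (lncRNA), whose starts the rule did not bar.

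The lists held between 30136 and 38023 peaks, with the fewest in replicate 2 of the new buffer. They give no read totals, but the pileup at each summit, the number of reads over it, could be solved from the deposited fold enrichment and p value, with an error in −log10 p of at most 0.000275. The lowest local background, which scales with depth, was 1.24 times higher in the deepest library than in the shallowest. A peak within 1 kb of a start was found in all 6 libraries for 3 of 8 B-cell marker genes, 3 of 6 T-cell marker genes and 0 of 8 myeloid and erythroid marker genes. The B-cell genes were MS4A1, EBF1 and POU2AF1, and the T-cell genes were CD8A, GATA3 and BCL11B.

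The strongest regions show what these sites look like. Below are summit windows on the plus strand of the hg19 reference for those of the 10 strongest regions that could be shown, first windows of 100 bp on each side of the summit that touch no exon and then 30 bases around a motif where the window touches one. STEAP3 was added because its region was the strongest with a CTCF motif, though it was called only in unpurified replicate 1, with 18 reads. Capitals mark matches on either strand to 7 transcription factor motifs, which were CTCF and NF-kB (by name), PU.1 (GAGGAAGT), AP-1 (TGANTCA), RUNX (TGTGGTT), EBF1 (CCCNNGGGA) and IRF (GAAANNGAA).
PDE4B, chr1:66840375-66840575: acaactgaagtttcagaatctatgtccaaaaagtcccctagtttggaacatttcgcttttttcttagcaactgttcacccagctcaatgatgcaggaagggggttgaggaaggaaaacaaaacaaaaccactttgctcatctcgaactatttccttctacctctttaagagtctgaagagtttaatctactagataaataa
FAM120A, chr9:96328778-96328978: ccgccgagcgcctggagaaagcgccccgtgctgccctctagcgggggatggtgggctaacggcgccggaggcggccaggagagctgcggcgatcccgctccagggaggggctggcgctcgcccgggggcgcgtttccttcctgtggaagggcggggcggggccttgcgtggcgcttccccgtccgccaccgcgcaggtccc
USP7, chr16:8985543-8985743: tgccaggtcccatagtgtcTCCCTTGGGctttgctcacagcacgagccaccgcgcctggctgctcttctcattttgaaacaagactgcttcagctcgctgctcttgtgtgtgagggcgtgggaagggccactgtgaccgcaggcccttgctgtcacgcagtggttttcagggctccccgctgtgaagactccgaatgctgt
SLITRK1, chr13:84450851-84451051: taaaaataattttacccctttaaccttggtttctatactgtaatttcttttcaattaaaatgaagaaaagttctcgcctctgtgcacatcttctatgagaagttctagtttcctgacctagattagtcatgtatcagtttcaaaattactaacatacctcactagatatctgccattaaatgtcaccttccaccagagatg
SERPINB10, chr18:61603521-61603721: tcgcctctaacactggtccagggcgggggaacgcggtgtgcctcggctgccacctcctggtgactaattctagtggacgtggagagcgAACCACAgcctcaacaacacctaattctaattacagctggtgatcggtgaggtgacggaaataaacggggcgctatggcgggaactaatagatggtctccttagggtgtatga
RCN1, chr11:32127475-32127675: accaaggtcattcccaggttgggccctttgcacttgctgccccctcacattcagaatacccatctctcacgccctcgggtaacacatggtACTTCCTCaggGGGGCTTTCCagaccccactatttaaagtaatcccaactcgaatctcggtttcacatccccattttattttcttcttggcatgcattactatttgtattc
UBE2QL1, chr5:6496518-6496547: catttcatgaaTGTGGTTgccattatgaca
RDX, chr11:109735037-109735066: ggggctttttcTGAGTCAtatggaaactgc
TPRG1, chr3:189042559-189042588: agactaatgccTGTGGTTttcaaaggttaa
STEAP3, chr2:120022907-120022936: gggaacagGTGCCACCTGCTGGacaatcac
The capitals are an EBF1 match in the USP7 window, a RUNX match in the SERPINB10, UBE2QL1 and TPRG1 windows, a PU.1 match followed by an NF-kB match in the RCN1 window, an AP-1 match in the RDX window and a CTCF match in the STEAP3 window. The PDE4B, FAM120A and SLITRK1 windows hold none of the 7 motifs. The windows run from 33.3% GC at SLITRK1 to 76.6% GC at FAM120A.

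Among the 10 strongest regions, all called in every library, 8 had their summit past the gene end and 2 upstream of it in a UTR. These 10 were chosen for the highest mean −log10 q over the libraries, so their strength is a description. The region of ERVMER34-1, an envelope gene derived from an endogenous retrovirus, was at chr4:53588046-53589027, with its summit 191 bp past the end of the gene record. Its summit pileup was 76 and 59 reads in the old buffer, 89 and 73 in the new buffer and 91 and 86 unpurified. In these raw reads both unpurified libraries were above both old buffer libraries, and the new buffer libraries overlapped with each. Comparisons of protocols at named regions, here and below, use reads that were not scaled for depth, and scaling can change them. This summit lay in an exon, within 500 bp of the start of the lncRNA ENSG00000286161 and 20126 bp from the end of the canonical ERVMER34-1 transcript.

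At PDE4B, which encodes a cAMP phosphodiesterase, the region spanned chr1:66839903-66841066 and the summit lay 213 bp past the gene end, in no annotated gene. Its pileup was 93 and 88 reads in the old buffer, 97 and 92 in the new buffer and 92 and 89 unpurified, so all libraries lay close together. No PDE4B start had a peak within 1 kb in any library. The USP7 region, past the end of a gene for a deubiquitinase of the p53 pathway, was the longest of the 246 at 1444 bp and lay at chr16:8984982-8986425. Its pileup was 67 and 51, 53 and 64, and 72 and 43 reads in the 3 protocols in the same order. The replicates of each protocol were further apart than the protocol means, and starts of USP7 had a peak in all 6 libraries.

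The FAM120A region, at chr9:96328630-96329310, had its summit 484 bp past the gene end and within 500 bp of a lncRNA start. Replicate 2 was lower in each protocol, with 35, 40 and 50 reads against 63, 66 and 59 in replicate 1. A summit met the rule in 3 of the 6 libraries, and the remaining reads are of overlapping peaks. SLITRK1, which encodes a neuronal membrane protein, had its summit 389 bp past the end, with 58 and 37 reads, 45 and 29 reads, and 53 and 59 reads. UBE2QL1, of the ubiquitin-conjugating enzyme family, had its summit 338 bp upstream of the end in a UTR, with 54 and 49, 58 and 43, and 62 and 52 reads. In raw reads both unpurified libraries were above both new buffer libraries at SLITRK1 and the other pairs of protocols overlapped. At UBE2QL1 all pairs overlapped.

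At RDX, the gene of radixin, which links actin to the cell membrane, the summit lay 30 bp past the end of the gene record, 365175 bp from the end of the canonical transcript. Its pileup was 45 and 38, 48 and 33, and 60 and 42 reads. SERPINB10, a serine protease inhibitor gene, had 39 and 34, 50 and 38, and 44 and 37 reads at a summit 276 bp past its end. TPRG1 had 37 and 27, 37 and 38, and 37 and 36 reads at a summit 481 bp upstream of its end. RCN1, a gene for a calcium-binding protein of the endoplasmic reticulum, had 45 and 34, 55 and 36, and 46 and 50 reads at a summit 307 bp past its end. At RDX, SERPINB10 and RCN1 the spread between replicates of at least 1 protocol was larger than the differences between protocol means.

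**Figure D1:**
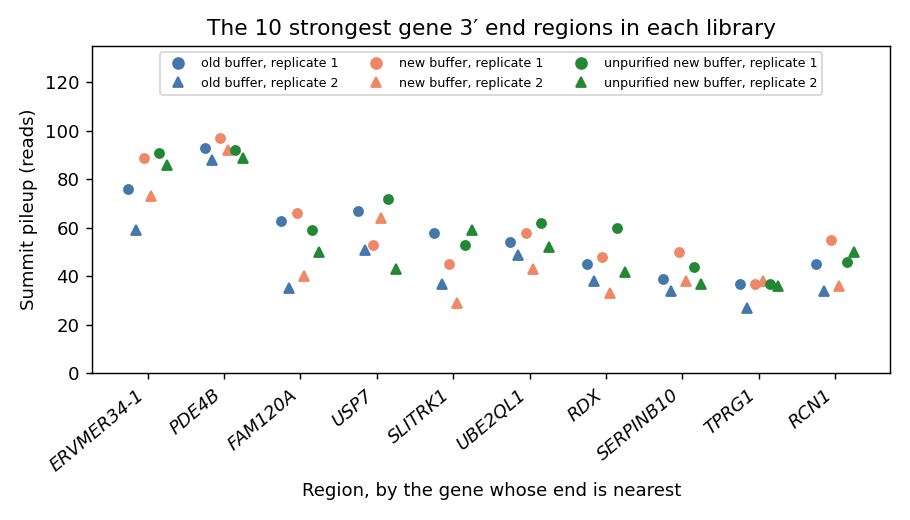
Summit pileup in reads of the 10 regions with the highest mean −log10 q, by library, with 1 point per library, colours for protocols and shapes for replicates. PDE4B lies between 88 and 97 reads in every library, and TPRG1 between 27 and 38.

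The summits were not spread evenly around the gene end. In the last 100 bp before the end there were 1 to 9 peaks per library, which is 3.19 ± 1.8 peaks per Mb of sequence where the rule allows a summit (SD, n = 6 libraries). In the bin from 200 to 300 bp past the end there were 13 to 22 peaks per library, 12.02 ± 2.06 per Mb. The other 8 bins had means between 6.19 and 9.02 per Mb. The bins were picked out after their values were seen and were not tested. The sequence in the last 100 bp had 35.7% GC and the other bins 41.8% to 45.5%, and the part of base composition in the profile was not tested.

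Downstream of the end there were 8.87 ± 0.983 peaks per Mb and upstream of it 6.79 ± 1.08 per Mb (SD, n = 6), and the downstream rate was higher in 6 of 6 libraries. The mean difference was 2.08 peaks per Mb (exact two-sided sign-flip test over the 6 libraries, p = 0.03125, the smallest that 6 libraries can give), 3.13 within 250 bp of the end and 3.62 at ends of canonical transcripts. After Benjamini-Hochberg adjustment over 11 such contrasts this p was 0.0859, and no contrast passed 0.05 after adjustment. Of the 246 regions, 137 had their strongest summit past the end and 109 at or upstream of it. Of the 109, 94 lay in a UTR, and of the 137, 95 lay in no annotated gene. Only 4 regions had an end of a gene on the other strand within 500 bp as well, among them MPEG1, whose summit lay 284 bp past its own end and inside a UTR of DTX4.

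**Figure D2:**
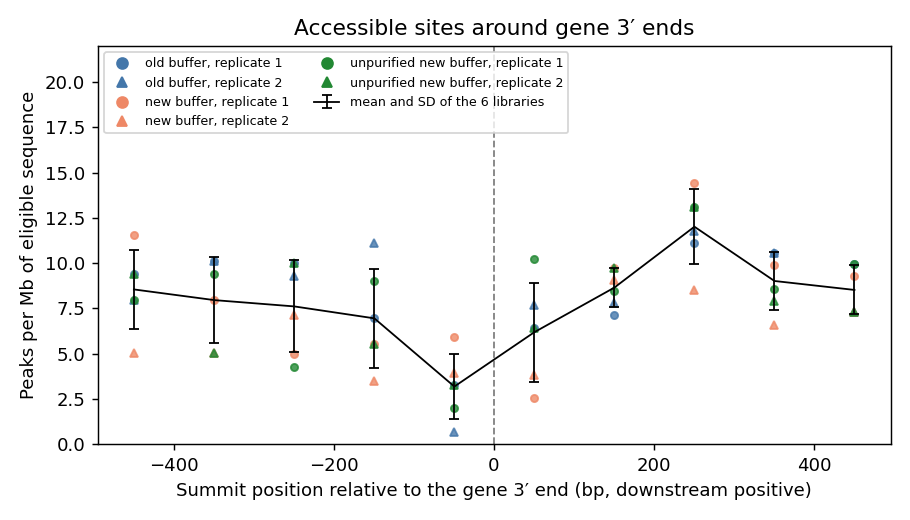
Peaks per Mb of eligible sequence (vertical axis) in 100-bp bins of the summit's position relative to the gene 3′ end (horizontal axis, downstream positive), with 1 point per library and the mean and SD of the 6 libraries as a black line with bars. The bin just before the end is lowest, at 3.19 per Mb, and the bin from 200 to 300 bp past it highest, at 12.02 per Mb.

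Within 500 bp, gene 3′ ends held fewer accessible sites per Mb than distal introns and intergenic sequence in every library. The rate was 7.86 ± 0.933 peaks per Mb at gene ends, 9.34 ± 1.05 in distal introns and 8.49 ± 0.901 in distal intergenic sequence (SD, n = 6), where distal means over 2 kb from every start and over 500 bp from every gene end. It was lower at gene ends in 6 of 6 libraries for both, with differences of −1.48 and −0.629 peaks per Mb (exact sign-flip test, p = 0.03125 for each, adjusted p = 0.0859). The sizes depended on the distance allowed, with −2.33 and −1.49 within 250 bp of the end and −0.601 and 0.271 within 1000 bp, where the difference from intergenic sequence turned. Distal coding exons had 8.23 ± 0.951 per Mb, and gene ends were higher than these in 2 of 6 libraries (exact sign-flip test, p = 0.312). Of 16110 gene ends more than 2 kb from every start, 247 or 1.53% had such a site in at least 1 library.

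The height of gene end peaks was compared with that of distal intronic and coding exon peaks, and their width with that of intronic peaks, and no difference passed the test. The median summit pileup was 18.5 ± 1.05 reads at gene ends, 19.2 ± 0.983 in distal introns and 19.2 ± 1.33 in distal coding exons (SD, n = 6; exact sign-flip tests, p = 0.25 and p = 0.312). The direction of both turned when the mean or the fold enrichment was used. The median width was 360 ± 18.9 bp at gene ends and 356 ± 11.99 bp in distal introns (SD, n = 6; exact sign-flip test, p = 0.531).

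The summit windows were richer in G and C than those of distal introns. The median GC of the summit windows (100 bp on each side) was 47.5% ± 1.43 at gene ends and 43.8% ± 0.445 in distal introns (SD, n = 6), higher in 6 of 6 libraries by 3.73 percentage points on average (exact sign-flip test, p = 0.03125, adjusted p = 0.0859). At gene ends it was 45.3% and 46.3% for the old buffer, 48.3% and 48.8% for the new buffer and 47.8% and 48.8% unpurified. Both old buffer libraries lay below the other 4, as they did for distal introns, with 43.3% in both against 43.8% to 44.3%, and the exact permutation test of 2 libraries against 2 cannot go below p = 0.33. The sequence where the rule allows a summit had 43.0% GC and distal intronic sequence 40.95%. Over the 246 regions GC ran from 28.4% to 78.1%, and 46 regions had at least 60%.

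**Figure D3:**
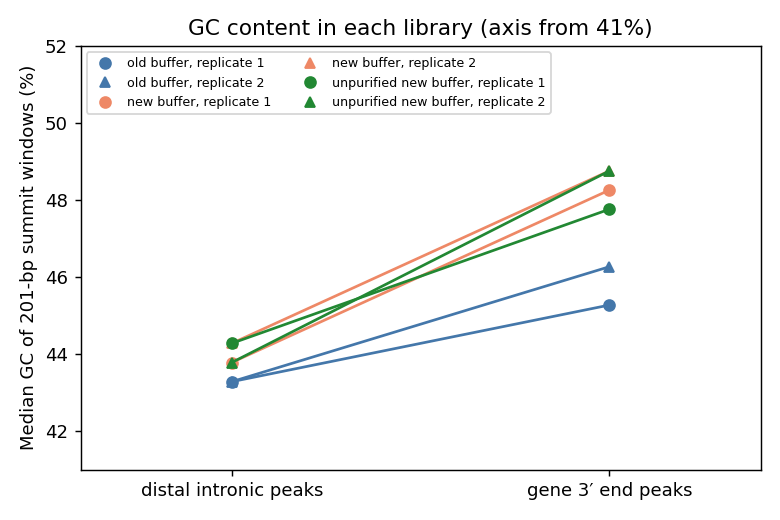
Median GC (%) of the windows 100 bp on each side of the summits of distal intronic peaks (left) and gene 3′ end peaks (right), with a line for each of the 6 libraries and a vertical axis that does not start at 0. Every line goes up, and the old buffer lines are the lowest on both sides, at 43.3% in introns and at 45.3% and 46.3% at gene ends.

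A CTCF motif, the letters bound by the main insulator protein of vertebrates, was in the summit window of 4 of the 246 regions, or 1.63%, against 2.06% of all merged autosomal regions. They included STEAP3, MOCS2 and ZNF703, and 0 of the 4 was called in all 6 libraries. Per library 0.884% ± 0.563 of gene end peaks held the motif, against 1.42% ± 0.139 of distal intronic peaks (SD, n = 6; exact sign-flip test, p = 0.0938, adjusted p = 0.172), and within 1000 bp of the end the difference turned, to 1.24 points. This is 0 to 2 peaks per library, and a missing match says only that these letters are not in the window.

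The motifs of factors active in B cells were present in many windows, AP-1 and RUNX in the most. AP-1 was in 15.4% of the 246 windows, 17.7% of distal intronic regions and 14.3% of all merged regions, and RUNX in 13.4%, 13.9% and 10.5%. In the same order EBF1 was in 8.13%, 3.70% and 4.76%, IRF in 8.94%, 12.8% and 10.7%, NF-kB in 6.10%, 5.91% and 5.37%, and PU.1 in 4.07%, 3.48% and 2.91%. At least 1 of the 7 motifs was in 114 of the 246 windows, or 46.3%, between the 48.8% of distal intronic and the 41.8% of all merged regions. Of regions with a given motif other than CTCF, 25.0% to 31.8% were called in all 6 libraries, and of the 132 regions with none 25.0%. These shares are descriptions and were not tested.

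The start of a lncRNA lay within 500 bp of the strongest summit in 20 of the 246 regions, or 8.13%. The same held for 0.922% of distal intronic and 2.58% of distal intergenic regions, which are descriptions too. These classes differ from gene ends by definition, as distal intronic summits lay in no exon and intergenic summits in no gene, lncRNA genes included. Summits just inside the start of a lncRNA were thus barred from both classes but not from gene ends. The shares are therefore not directly comparable. The 20 regions include CATIP with CATIP-AS1, FMNL1 with MAP3K14-AS1 and ADNP2 with PARD6G-AS1, each called in all 6 libraries and chosen for their names after the values were seen. Their windows had 75.1%, 66.7% and 52.2% GC. Of the 20 regions 9 were called in all 6 libraries, against 65 of the 246 (26.4%) and 35.6% of all merged autosomal regions. For 130 of the 246 regions (52.8%) the nearest gene had a peak within 1 kb of a start in all 6 libraries, and for 81 (32.9%) in none. The same shares over all protein-coding genes are not given here, so these counts are descriptions without a background.

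Per library, 57.6% ± 2.77 of genes with a gene end peak had a promoter peak, against 55.0% ± 1.49 of other genes (SD, n = 6), higher in 5 of 6 libraries (exact sign-flip test, p = 0.0625, adjusted p = 0.138). The difference of 2.56 points turned to −0.324 at a −log10 q of at least 5 and to −3.94 within 250 bp of the end. The exception was replicate 2 of the new buffer, with 52.7% against 53.5%. The poly(A) signal AATAAA stood in the last 50 bases of 62.5% of the 251 genes with a region at their end and of 59.96% of the other genes whose ends were over 2 kb from a start. Those genes had a median length of 37.2 kb against 33.4 kb.

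Many of these regions were called in some libraries and not in others. Of the 246 regions 65 were called in all 6 libraries, or 26.4%, against 35.6% of all merged autosomal regions, 27.0% of distal intronic, 34.4% of distal coding exon and 64.7% of promoter regions. A library was counted as calling a region when any of its peaks shared 1 bp or more with it, and 42 of the 65 had a summit that met the rule in every library. In the others some pileups are of overlapping peaks whose summit lay outside the rule. In 1 library alone 75 regions were called, or 30.5%. Upstream of the end 28.4% and downstream of it 24.8% were called in all 6.

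**Figure D4:**
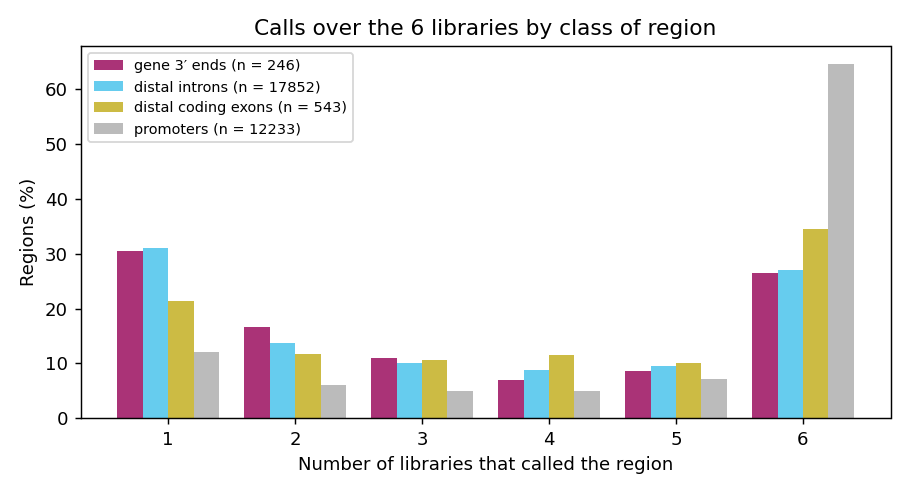
Share of regions in percent (vertical axis) called in 1 to 6 libraries (horizontal axis), as bars for gene 3′ ends, distal introns, distal coding exons and promoters. Gene ends and distal introns have nearly the same bars, with 26.4% and 27.0% in 6 libraries, and promoters have 64.7% there.

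Comparing the protocols, which the study did to find out whether SDS and purification could be left out, the share of autosomal peaks at gene ends was 0.345% and 0.369% in the old buffer, 0.330% and 0.307% in the new buffer and 0.352% and 0.346% unpurified. Both new buffer libraries were below the other 4, while the old buffer and unpurified libraries overlapped. The differences were −0.0385 percentage points for new against old buffer, −0.00804 for unpurified against old and 0.0305 for unpurified against new (exact two-sided permutation tests of 2 libraries against 2, p = 0.33, p = 1 and p = 0.33, where 0.33 is the smallest p possible). The libraries called 138 and 140 of the 246 regions in the old buffer, 139 and 107 in the new buffer and 147 and 130 unpurified. The low count of 107 belongs to the library with the fewest peaks.

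Regions found by both replicates of a protocol but missed by both replicates of another were few. Between new and old buffer there were 16, 6 in the new buffer (2.82% of the 213 regions either called, background 1.83%) and 10 in the old buffer (4.69%, background 3.2%), and the background for both directions was 5.03%. Between unpurified and old buffer there were 13, 4 unpurified (1.75%, background 2.42%) and 9 old (3.95%, background 2.8%), against 5.23% for both. Between unpurified and new buffer there were 14, 8 unpurified (3.74%, background 2.7%) and 6 new (2.80%, background 1.74%), against 4.44% for both. The background is the share that met the same rule among the merged autosomal regions called by either protocol of the pair (48054 to 49472 regions). These counts are small and were not tested.

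The strongest region called with the old and not in the new buffer was at U2SURP, a splicing factor gene, with pileups of 25 and 22 reads and a summit 395 bp past the end, and it was called unpurified too, with 17 and 14 reads. In the other direction it was at the gene record ENSG00000268434, with 13 and 14 reads. Against the unpurified libraries the strongest old buffer region was at ARHGEF2, with 23 and 16 reads, and it was also called in the new buffer, with 15 and 19 reads. KCTD3 was strongest in the unpurified libraries against the old buffer, with 22 and 16 reads. XDH, the xanthine dehydrogenase gene, was strongest unpurified against the new buffer, with 18 and 14 reads, and XRCC5, which encodes the Ku80 subunit of DNA repair, was strongest in the new buffer against unpurified, with 18 and 15 reads. U2SURP, ARHGEF2, KCTD3, XDH and XRCC5 were each called in at least 1 library of the protocol not in their comparison, and ENSG00000268434 in none.

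In the 65 regions called everywhere, pileups were divided by the median of their library over the 19363 merged regions called in all 6. The highest library was 1.53 times the lowest in the median region, from 1.06 to 2.68 times, and 1.5 times over all regions called everywhere. Both new buffer values were above both old buffer values in 11 regions (16.9%, background 21.6%) and below them in 17 (26.2%, background 15.8%). Both unpurified values were above both old buffer values in 13 (20.0%, background 22.6%) and below in 11 (16.9%, background 14.7%). Both unpurified values were above both new buffer values in 9 (13.8%, background 16.6%) and below in 9 (13.8%, background 15.0%). The median difference on the log2 scale was −0.01 for new against old buffer, 0.01 for unpurified against old and 0.04 for unpurified against new. Over all 19363 regions it was 0.03, 0.04 and 0.01 in the same order, and these medians were not tested.

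Gene lists were counted over the ends more than 2 kb from every start, of which 1.53% had a site over all genes. It was 2 of 36 such ends of B-cell identity and receptor genes (EBF1 and CD40), or 5.56%, and 2 of 28 of T-cell and myeloid genes (CD2 and CD8A), or 7.14%. It was 0 of 29 for NF-kB pathway and target genes, 0 of 32 for AP-1, ETS, RUNX, STAT and IRF factor genes and 0 of 59 for cytosolic ribosomal protein genes. JUNB, of the factor genes, also had a site, but its end lies within 2 kb of a start. The counts are descriptions and were not tested. EBF1, a transcription factor that sets B-cell identity, was called in all 6 libraries, with 25 and 22, 25 and 22, and 25 and 24 reads at a summit 155 bp past its end, where the window held an AP-1 and an IRF match. Its libraries were nearly equal. CD40, the costimulatory receptor, was called in 1 library, unpurified replicate 1, with 14 reads. JUNB, an AP-1 subunit gene, had 39 and 28 reads in the old buffer, 33 in replicate 1 of the new buffer and 34 and 43 unpurified, at a summit 2173 bp from its own start, close to the 2 kb limit. CD2, a T-cell adhesion receptor gene, had 20 and 18, 17, and 22 and 24 reads, and CD8A, the T-cell coreceptor gene, 25 and 16, 28, and 15 and 23. A summit met the rule in 1 of the 5 libraries that called CD2 and in 3 of the 5 that called CD8A. The remaining reads are of overlapping peaks. JUNB, CD2 and CD8A were each missed in the same library, replicate 2 of the new buffer, and apart from EBF1 these genes are named as the whole of a short count, after their values were seen.

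Other regions called in all 6 libraries lay at genes of the immune system and of DNA damage, named here for their function after their values were seen. EGR2, a transcription factor gene induced by lymphocyte activation, had 54 and 45 reads in the old buffer, 49 and 38 in the new buffer and 48 and 42 unpurified at a summit 428 bp past its end, and its starts had a peak in all 6 libraries. MPEG1, which encodes a pore-forming protein of phagocytes, had 30 and 43, 57 and 30, and 43 and 33 reads, with an NF-kB and a RUNX match. LAPTM5, a lysosomal protein gene of blood cells, had 24 and 20, 25 and 17, and 24 and 19 reads in a UTR 144 bp upstream of its end. Within each of these genes all pairs of protocols overlapped in raw reads, which were not scaled for depth.

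ERAP2, an aminopeptidase gene of antigen processing, had 21 and 29, 26 and 19, and 27 and 18 reads 158 bp past its end, with an AP-1 and a RUNX match. GM2A, a lysosomal lipid-transfer gene, had 30 and 26, 19 and 18, and 20 and 14 reads 350 bp past its end, with an NF-kB match. In raw reads both old buffer libraries were above the other 4 at GM2A, and at ERAP2 the protocols overlapped. PARP1, the gene of a sensor of DNA breaks, had 28 and 23, 42 and 19, and 26 and 28 reads in an exon 366 bp upstream of its end. NCF1, a subunit gene of the phagocyte oxidase, had 22 and 24, 21 and 14, and 23 and 20 reads, and since it has near-identical pseudogene copies, reads mapped there are uncertain. A summit met the rule at NCF1 in only 1 of the 6 libraries.

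At the limits of the rule, the 64 peaks in the last 50 bp inside the limit of 500 bp from a gene end had a median pileup of 17 reads and the 57 in the next 50 bp outside it 21 reads. At the limit of 2 kb from a start, the 12 peaks up to 200 bp inside the rule had a median of 25 reads and the 5 up to 200 bp outside it 20 reads. The nearest start lay at a median of 11606 bp, was of the same gene in 159 of the 246 regions and was within 5 kb in 53. The strongest summit was within 500 bp of the end of the canonical transcript in 215 regions and further away in 30, as at RDX and ERVMER34-1.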

How the data were processed

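Reads of the 6 libraries were mapped to hg19 by the authors with Bowtie2 2.1.0, duplicates were removed with Picard 1.79, and MACS2 (version not given in the sources used here) called narrow peaks with a q threshold of 0.01. Per the methods, reads of 1 condition were merged before calling, but 1 list per library was analysed. The deposited lists give a score, a fold enrichment of the summit (a ratio), and −log10 p and −log10 q values. The deposited position of the summit within the peak was used to place it.

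Summits were set against GENCODE version 44 lifted to hg19 (19229 autosomal protein-coding gene records, 75494 starts). Pileups and local backgrounds were solved from the fold enrichment and p value, and depth is known only in relative terms. A region was called by a library when the 2 shared 1 bp or more. Motifs and GC were read in windows 100 bp on each side of the summit of the GRCh37 reference, the same build. Protocols were compared by exact permutation tests and classes of peaks by exact sign-flip tests over libraries, with Benjamini-Hochberg adjustment. The members and gene lists were chosen with earlier results of these data known. Peaks per Mb, pileup overlap between protocols, lncRNA starts and poly(A) signals were added after the data were examined. The named regions were the 10 with the highest mean −log10 q among those called in all 6 libraries, the strongest specific one per protocol pair and direction (by the lower −log10 q of its 2 libraries), and up to 5 per gene list. The code was tested on simulated data, and its overlaps were compared with bedtools 2.31.1. It ran in Python 3.11.15 with pandas 2.3.3, pysam 0.24.0, SciPy 1.17.1 and NumPy 2.4.6.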

Additional observations from a re-analysis of the deposited data

How the results depend on the processing

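Of 237 values recomputed under other settings, 163 were classed as unchanged. A difference was so classed when it kept direction and side of the p threshold, and a count when it stayed within a set fold of its main value. Within 250 bp of the gene end there were 131 regions, 37 of them called in all 6 libraries, and 8, 4 and 7 protocol-specific ones (new and old, unpurified and old, unpurified and new buffer). Within 1000 bp there were 486, 128, and 35, 31 and 26, and over 5 kb from starts the last pairs had 8 and 9. The shares over all merged regions at these settings are not given here, so the counts have no background. The share of peaks for unpurified minus old buffer turned to 0.00237 percentage points at a −log10 q of at least 5, 0.0101 at equal peak numbers and 0.00752 within 250 bp. The width difference turned to −0.25, −3.33 and −1.5 bp at equal peak numbers, within 250 bp and within 1000 bp. The CTCF difference from introns was −0.617 points at equal peak numbers (exact p = 0.03125) and 1.24 within 1000 bp, where that from exons was 1.39, and 0.120 in windows of 200 bp on each side. The pileup difference from introns was 0.167 reads over 5 kb from starts, and by mean 0.471 and 0.376 from introns and exons, by fold enrichment 0.115 and 0.122. The promoter difference was −0.324 points at the stricter q, −3.94 within 250 bp, 6.98 within 1000 bp, 5.30 over 5 kb and 5.49 at canonical ends. Peaks per Mb less intergenic were −0.551 at canonical ends, −0.418 over 5 kb and 0.271 within 1000 bp, and less coding exons 0.519 there. The causes were not tested.

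Without 1 library, the exact test over 5 libraries cannot go below p = 0.0625. The GC difference was 3.48 to 4.08 points, and peaks per Mb were −1.57 to −1.36 less intronic, −0.748 to −0.532 less intergenic and 1.78 to 2.27 downstream less upstream. With a lone library in 1 protocol, specific regions numbered 34 to 52, 30 to 51 and 35 to 47 for the 3 pairs. The rule then asks for a call or a miss in that library alone. The backgrounds above, for 2 libraries against 2, do not apply to these counts, and no other is given. The share for unpurified minus old ran from −0.0204 to 0.00434, turning without old buffer replicate 2, and the width from −0.1 to 5.2 bp, turning without new buffer replicate 1. With replicate numbers as a block the share differences are −0.0385, −0.00804 and 0.0305 by construction, with exact p = 0.5, 1 and 0.5. Over 19363 regions the replicate differences of protocols correlated at −0.003 to 0.013. This gives no sign of pairing by replicate number, and the labels do not say whether the libraries were paired.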
